A study of Mus musculus with 92 samples.

Results

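The protein part of the cytosolic ribosome was followed in single cells (blastomeres) of 8-cell mouse embryos. Genes were taken by symbol: Rpl or Rps followed by a number and at most 1 letter, the 3 stalk genes Rplp0, Rplp1 and Rplp2, and Rpsa. The rule found 79 of 7886 genes of the deposited table, 47 for the large subunit and 32 for the small subunit. Rps3a1, Rpl36al, Rpl7l1, Rpl22l1, Fau and Rack1 also belong to the ribosome or resemble its proteins but fall outside the rule by spelling, and Rpl24 was not analysed here.

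The ribosome joins amino acids at the large subunit and reads the messenger RNA at the small subunit, and its proteins are made in matched amounts. Messenger RNAs for these proteins typically start with a C followed by a run of pyrimidines, the 5′ terminal oligopyrimidine (TOP) element, through which the kinase mTOR and the protein Larp1 control their translation. In the mouse embryo, maternal ribosomes are carried over from the oocyte, and transcription of ribosomal protein genes from the embryo's own genome begins around the 2-cell stage.

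All embryos were wild type and of the strain C57BL/6N. Zygotes had received Let7d, Let7e, mi699a-5p or a negative control (NC) by microinjection, and were grown to the 8-cell stage and taken apart. The design text describes the let-7 agents as mimics of let-7d-5p and let-7e-5p. The identity of mi699a-5p beyond its label is not given in the sources used here. Each library is 1 blastomere, read by Smart-seq2, which copies whole messenger RNAs and has no molecular identifiers. Of 92 samples, 82 had a column of counts and were used, and 10 had none. Among these columns, 2 of Let7d mouse id 2 agreed within sampling noise and were counted as 1 blastomere, which left 81. Blastomeres of one mouse id were summed, giving 3 mouse ids (22 blastomeres) for NC, 3 (18) for Let7d, 4 (20) for Let7e and 4 (21) for mi699a-5p. What a mouse id stands for is not given in the labels. In 3 mouse ids (NC 2, Let7e 1 and mi699a-5p 4) some blastomeres had Xist, made from an inactive X chromosome, and others Y-linked reads, so these hold cells of more than 1 embryo, and the spread between blastomeres of one mouse id can include differences between embryos. The p-values measure only the spread between mouse ids, which may be technical. No mouse id occurs in more than 1 group, and a batch shared by a group cannot be told apart from its treatment. Summed reads ranged from 6329464 to 24037593 per mouse id. Of 13 embryo markers 12 had a row, with a summed level of 7340 to 12200 CPM (counts scaled to the library's total reads), and the one without a row was Cdx2. Markers of cumulus, sperm, blood, and skin and stroma had 0 rows, so their levels were not analysed here.

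The 2 let-7 agents share their seed, the bases 2 to 8 by which a microRNA pairs with its targets. Both mature sequences (RefSeq, GRCm38.p6) are shown with the seed in capitals, because a site that pairs with the whole seed carries its complement. Shorter matches and matches outside the 3′ untranslated region were not searched.
mmu-let-7d-5p: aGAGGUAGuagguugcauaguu
mmu-let-7e-5p: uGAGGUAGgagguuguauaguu
The complement CTACCTC was found in the annotated 3′ untranslated region of 2 of 78 members with a coding transcript (2.56%), among them Rpsa. It was found in 9.51% of 7526 other genes of the table, whose untranslated regions are longer (median 967 bases, against 90 for the members). Among 3611 other genes with untranslated regions within the members' 90th percentile the share was 3.1%. The match in Rpsa is shown in capitals with its neighbouring bases.
Rpsa: agatccttCTACCTCcagattgg
Rpsa, a small subunit protein also known as the laminin receptor, was read at 441, 345 and 466 CPM in NC, at 345, 260 and 322 in Let7d, and at 469, 380, 397 and 362 in Let7e. The Let7d values met the NC range at 345 and the Let7e values lay across it. The log2 fold change of Rpsa against NC was -0.43 ± 0.21 (SE) for Let7d and -0.05 ± 0.20 for Let7e, with adjusted p = 1.0 and 0.999 (edgeR's quasi-likelihood test, Benjamini-Hochberg over all genes). In mi699a-5p, Rpsa was read at 393, 330, 284 and 277 CPM. Its log2 fold change there was -0.38 ± 0.20 (adjusted p = 0.871, edgeR's quasi-likelihood test), near that of Let7d.

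A promoter entry of RefSeq (250 bases before to 50 after the start) was matched for 58 of the 79 members. A C at the start base with C or T at each of the next 4 bases stood at 12 of these 58 starts (20.7%), against 2.21% of 6161 other genes of the table. Within 10 bases of the start the shares were 58.6% and 31.9%, so the exact count depends on the annotated base. CCGGAAG on either strand, a core of the sites of the ETS family factor Gabpa, was in 41.4% of the members' 300-base windows and 23.2% of the others. TATAAA was in 0 of 58 members' last 50 bases before the start, and in 1.06% of the others. Start windows are shown for 4 members with the pyrimidine run, in capitals, and for Rplp0 and Rps4x, which lack it at the annotated base (GRCm38.p6, gene strand, start at the 11th base).
Rps6, chr4:86857348-86857377, minus strand: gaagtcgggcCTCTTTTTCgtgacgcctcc
Rps18, chr17:33955646-33955675, minus strand: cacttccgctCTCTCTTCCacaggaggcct
Rpl15, chr14:18270967-18270996, minus strand: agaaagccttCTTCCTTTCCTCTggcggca
Rps27, chr3:90213629-90213658, minus strand: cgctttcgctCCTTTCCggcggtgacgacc
Rplp0, chr5:115559457-115559486, plus strand: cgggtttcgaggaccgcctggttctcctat
Rps4x, chrX:102189372-102189401, minus strand: gctgggcggagcaacccaggctccagcgcg
The 12 members with the run had a median of 910 CPM per kilobase of coding length and the 46 without it 976. Their median log2 fold changes against NC were -0.01 and -0.08 for Let7d, 0.09 and 0.04 for Let7e, and 0.00 and -0.06 for mi699a-5p. These are descriptions with no test.

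All 79 members had reads in each of the 81 blastomeres. Together they took a median of 4.18% of a blastomere's reads in the table's 7886 genes. By its name the deposited table had already been filtered by CPM, so detection, shares and medians hold for the genes it kept. By CPM, scaled by the trimmed mean of M values (TMM) and averaged over mouse ids, members ranged from 16.6 to 2590 with a median of 446. The median of all 7886 genes was 40.9. The 5 members with most reads, among them Rplp0 (2590 CPM), Rpl41, Rpl4 and Rpl8, held 22.1% of the members' reads.

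To compare genes with each other, CPM was divided by coding length in kilobases. Rpl41, whose protein is a very short peptide of the large subunit, had the highest density at 14100. Rplp0, the scaffold of the stalk that recruits elongation factors, stood at 2720, and Rps26 (2360), Rplp1 (2170) and Rpl8 (2110) were also near the top. Rps10 had the lowest density at 32.7, with Rpl13a (78.7), Rpl23a (107), Rpl10l (217), Rpl27a (246) and Rpl35 (278) above it. Rps10 was read at 9.35 to 38.7 CPM over the 14 mouse ids, so its low place held in each of them. Divided by the longest transcript, Rpl41 again led at 3350, with Rplp0 at 1910, and Rpl8, Rplp1 and Rpl4 were near the top. By the length of all annotated exons joined, Rpl41 stood at 1670 and Rplp0 at 1560. Rpl41 has 138 coding bases in a transcript of 582, and the size of its lead depends on the length used. By transcript, Rps10, Rpl13a, Rps20, Rpl23a, Rpl27a and Rps15a came last. Rps20 and Rps15a have long annotated transcripts (3706 and 5179 bases for 357 and 390 coding bases), and at 918 and 1370 CPM per kilobase of coding length they lay in the middle of the order.

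**Figure D1:**
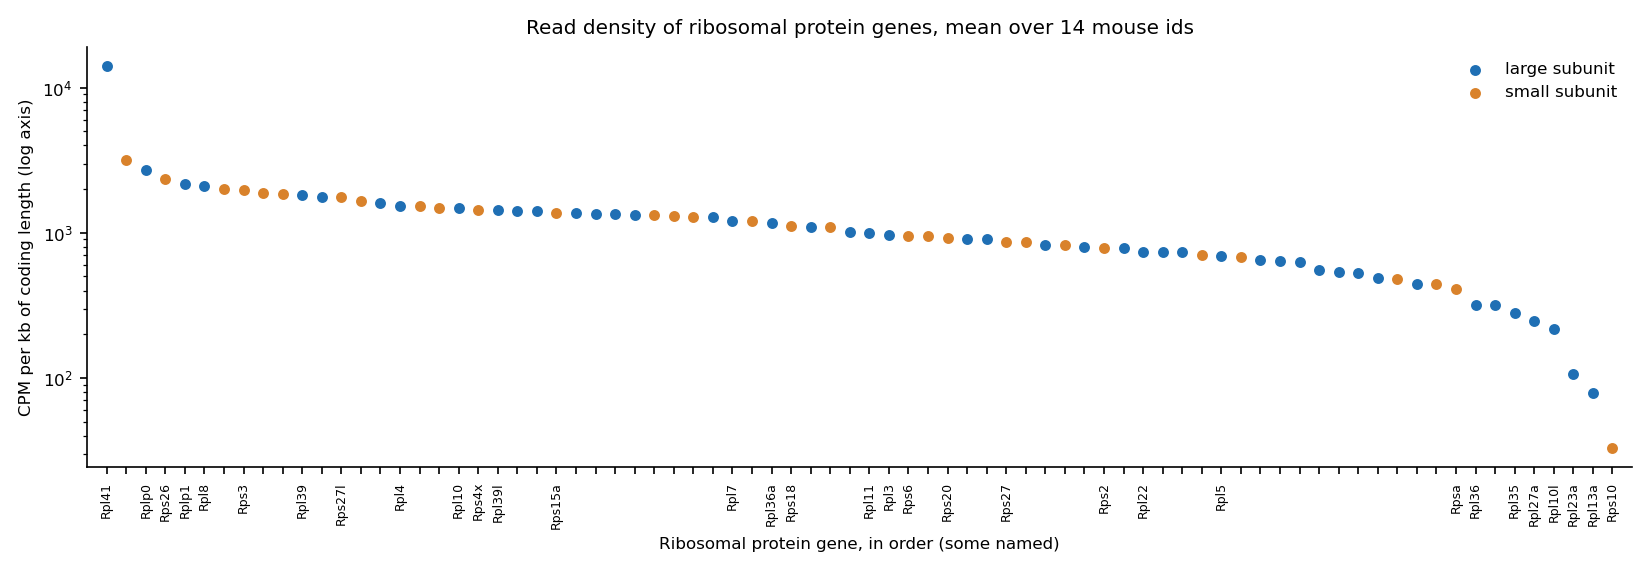
CPM per kilobase of coding length (log axis, mean over 14 mouse ids) for the 78 members with a coding length, in order and coloured by subunit, with some members named. Rpl41 stands at 14100 and Rps10 at 32.7, and members of both subunits are spread along the order.

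The low places of some members were met together with sequence that they share with other genes. Ribosomal protein genes have many processed pseudogenes, and the treatment of reads that match several places is not given in the sources used here. The coding sequence of each member (the whole transcript for Rps4l) was cut into overlapping windows of 50 bases, and 90.3% of a member's windows, in the median, also occurred in a transcript of another annotated gene. All windows were shared for 27 members and fewer than 50% for 15. Rpl7a shared windows with 120 other genes. Members with under 50% of their windows shared had a median of 1520 CPM per kilobase of coding length (n = 14), those from 50% to under 100% had 1020 (n = 37), and those with all windows shared had 868 (n = 27). Rpl41 shared 4.49%, Rps3 8.09% and Rpl8 8.73%, while Rpl23a shared all with 28 genes and Rpl13a 97.5%. Others went against this order: Rpl10l, among the lowest in density at 217, shared 12.5%, and Rps29, at 2020, shared all. Over 78 members the rank correlation of density with the shared percentage was -0.43, a description across genes of one table. Levels of members with shared windows are therefore uncertain, and the part of shared sequence in their order was not tested.

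Large subunit members held 2.69% ± 0.09 of the reads in NC and small subunit members 1.81% ± 0.11 (SD, n = 3). The log2 ratio of large to small subunit reads averaged 0.57 ± 0.04 over the 3 NC mouse ids, 0.56 ± 0.06 for Let7d (n = 3), 0.48 ± 0.03 for Let7e (n = 4) and 0.53 ± 0.07 for mi699a-5p (n = 4). Let7e mouse ids stood at 0.43, 0.51, 0.47 and 0.50, below the NC values of 0.53, 0.58 and 0.60, and the mi699a-5p values of 0.53, 0.43, 0.59 and 0.58 spanned both. Without 6 blastomeres described below, the Let7e mean was 0.51 ± 0.04 and its first mouse id stood at 0.57, inside the NC range of 0.53 to 0.65. Over single blastomeres the ratio ran from 0.19 to 0.96, with a median of 0.56.

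Variant copies were read next to the usual genes. Rps4l, a single-exon copy of Rps4x on chromosome 6 (148354656 to 148355598, GRCm38) that GENCODE M21 annotates as a transcribed processed pseudogene, shared 14.9% of its windows with another gene, so most of its sequence can be told from Rps4x. NC mouse ids had 197, 209 and 171 CPM of it, Let7d 112, 75.7 and 142, Let7e 210, 163, 152 and 133, and mi699a-5p 352, 186, 113 and 164. The Let7d values all lay below the NC values. Rps4l had the smallest p among members for Let7d against NC (log2 fold change -0.81 ± 0.34, p = 0.0297), and it did not pass after adjustment over all genes (adjusted p = 0.986, edgeR's quasi-likelihood test). Per kilobase of transcript, Rps4l stood at 180 and Rps4x at 1170.

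Rpl39l, a variant of Rpl39 on chromosome 16, shared 0 windows with other genes and had 1440 CPM per kilobase of coding length, against 1830 for Rpl39. Its CPM was 211, 190 and 240 in NC and 107, 122 and 250 in Let7d, so the groups overlapped. Rpl10l, a single-exon copy of the X-linked Rpl10 on chromosome 12, had 217 per kilobase against 1490 for Rpl10. Rpl10l was read at 135, 117 and 141 CPM in NC, at 236, 205, 127 and 173 in Let7e, and at 161, 76.2, 81.1 and 109 in mi699a-5p. Its log2 fold change for Let7e against NC was 0.50 ± 0.29 (p = 0.105, adjusted p = 0.999). Rps27l stood above Rps27, with 1760 against 868 CPM per kilobase of coding length. Rps27 shared all of its windows with other genes and Rps27l 48.3%, so this order is uncertain. Of the other usual genes, Rpl10 shared all windows, Rps4x 90.1% and Rpl39 86.5%. The part of shared sequence in these differences was not tested. Outside the rule, Rpl7l1 was at 403 CPM beside Rpl7 at 1010, Rpl36al at 37.8 beside Rpl36a at 370, and Rpl22l1 at 36.1 beside Rpl22 at 285. Rpl3l had no row. Lengths differ between these pairs, so the CPM values are printed side by side only.

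No member passed the test between treatments. At an adjusted p under 0.05, edgeR's quasi-likelihood test called 0 of 79 members for Let7d, Let7e or mi699a-5p against NC, for Let7e against Let7d, and for any difference among the 4 groups. Over all genes it called 1 of 7886 (0.0127%) for Let7d and 0% for each of the others. At an unadjusted p under 0.05, the members numbered 1 for Let7d, 0 for Let7e, 1 for mi699a-5p, 0 for Let7e against Let7d and 1 for any difference. The shares of all genes at that p were 4.69%, 4.02%, 5.5%, 5.39% and 5.59%. DESeq2 called 2, 0, 7, 8 and 15 genes and 0 members, with 2, 0, 4, 0 and 3 members at an unadjusted p under 0.05, where it had 5.62%, 4.84%, 6.75%, 6.39% and 7.77% of all genes. On simulated counts for Let7d against NC over 7886 genes, 10% of genes changed by 1 on the log2 scale were recovered. Of those changed by 2, 68% were recovered. The changed genes were drawn from all genes above a minimum mean CPM and not from the members alone. These are therefore not detection rates for members, nor for genes with few reads. Changes below 1, such as those seen in members, were not simulated.

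Median log2 fold changes of the 79 members were -0.07 for Let7d against NC, 0.07 for Let7e, -0.04 for mi699a-5p, and 0.14 for Let7e against Let7d. The medians of all genes were 0.01, 0.02, 0.05 and 0.01. Values above 0 were given by 27, 52, 27 and 64 members. With the level of Y-linked reads as a covariate these counts were 9, 51, 4 and 74, and the medians -0.20, 0.07, -0.18 and 0.28. With each blastomere scaled to one total before summing, mi699a-5p against NC had 42 members above 0 and a median of 0.02. The comparisons against NC share their control mouse ids. Every one of these medians was smaller than the SD between mouse ids within groups of the members' median level, 0.30 on the log2 scale. They also changed sign or size with single mouse ids: Let7d against NC was 0.03 without Let7d mouse id 2, Let7e against NC was -0.04 without Let7e mouse id 1, and mi699a-5p against NC ran from -0.26 without its mouse id 1 to 0.08 without its mouse id 4.

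Members named for the smallest p showed how close groups lay. Rps2, a small subunit protein at the messenger entry side, was read at 941, 573 and 889 CPM in NC and 615, 515, 620 and 560 in mi699a-5p. NC mouse id 2 fell inside the mi699a-5p range. The log2 fold change of Rps2 was -0.47 ± 0.20 (p = 0.0301, adjusted p = 0.866), and Rps2 was also the member with the smallest p for any difference among groups (p = 0.0487). Rpl8, a large subunit core protein, was at 1922, 1595 and 1835 CPM in NC and 1505, 1497, 1326 and 1233 in mi699a-5p. All of its mi699a-5p values lay below NC, with a log2 fold change of -0.36 ± 0.18 and adjusted p = 0.871.

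Rplp0 had the same order for mi699a-5p against NC with an overlap: 2891, 2573 and 3086 CPM in NC, and 2587, 2311, 2281 and 1979 in mi699a-5p (log2 fold change -0.32 ± 0.16). Rpsa and Rps23 followed with -0.38 ± 0.20 and -0.35 ± 0.21, and Rps27 with 0.46 ± 0.32. For Let7d, Rps27l (-0.63 ± 0.34), Rpl29 (-0.46 ± 0.26), Rpl10 (0.50 ± 0.28) and Rpl12 (-0.55 ± 0.31) followed Rps4l and Rpsa. For Let7e, Rps27 led (0.55 ± 0.32), with Rps28 at 0.38 ± 0.33, Rpl3 at 0.19 ± 0.19 and Rps3 at 0.17 ± 0.19. For Let7e against Let7d members with the smallest p included Rpsa (0.38 ± 0.20), Rps4x (-0.53 ± 0.28), Rps4l (0.59 ± 0.32), Rpl10 (-0.47 ± 0.26) and Rpl10l (0.51 ± 0.29). Adjusted p was at least 0.866 for each of these. Single mouse ids moved several of them by over 1.5 times. Rpl10 for Let7d against NC was 0.18 without Let7d mouse id 3 and 0.77 without Let7d mouse id 1, and Rps4x for Let7e against Let7d was -0.14 and -0.79 without the same 2. Rps27 for mi699a-5p was 0.12 without mi699a-5p mouse id 1, and Rpl3 for Let7e was 0.06 without Let7e mouse id 2 and 0.32 without NC mouse id 3.

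The share of reads in members differed far more between blastomeres of one mouse id than between groups. It ran from 1.90% to 14.4% over the 81 blastomeres, with an SD of 2.11 percentage points within mouse ids. Over mouse ids, NC averaged 4.50% ± 0.20, Let7d 4.70% ± 0.58, Let7e 4.65% ± 0.37 and mi699a-5p 4.3% ± 1.01 (SD; n = 3, 3, 4 and 4). The mi699a-5p mouse ids stood at 5.48%, 4.79%, 3.53% and 3.39%, both above and below the NC values of 4.72%, 4.46% and 4.33%.

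A few blastomeres with many reads in short genes carried this spread. As a measure that uses no member, the share of reads in 347 other nuclear genes with a coding length up to 400 bases was taken. It had a median of 2.80% and exceeded 2 times that median in 6 blastomeres, where it ran from 5.66% to 11.5%, while the other 75 blastomeres stood at 2.15% to 4.38%. These 6 held 7.82% to 14.4% of their reads in members, and the other 75 at most 6.95%. They were 1 blastomere of NC mouse id 2, 2 of Let7e mouse id 1, 2 of mi699a-5p mouse id 1 and 1 of mi699a-5p mouse id 2, with none in Let7d. Both shares were correlated over blastomeres (r = 0.95, n = 81; r = 0.78 without the 6, n = 75). The blastomeres share their library chemistry and part of them a mouse id, and this is a description. The 6 had a median of 2400000 reads and 6690 detected genes, against 2800000 and 6970 in the others, and a mitochondrial share of 8.41% against 5.25%. The rule for these 6 was set after the data were seen.

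**Figure D2:**
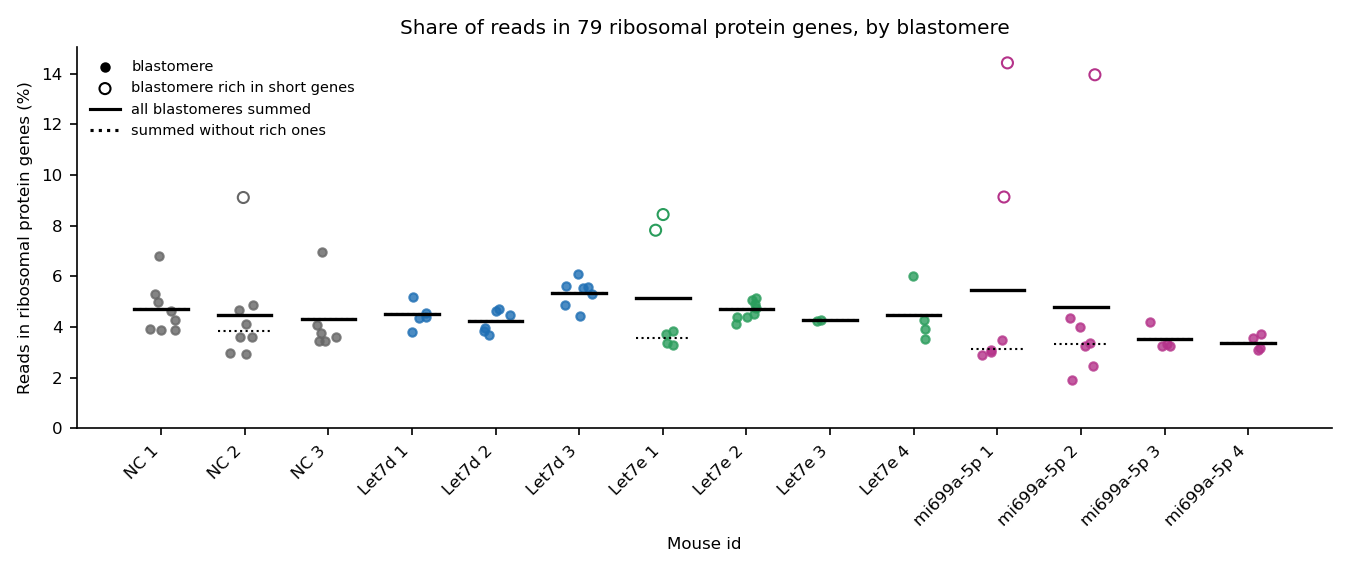
Percent of reads in the 79 members for each blastomere (points, open where rich in short genes), by mouse id; solid lines give the summed blastomeres and dotted lines the sum without the open ones. The 4 mi699a-5p mouse ids lie between 3.13% and 3.53% without the open points.

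In these 6 blastomeres 77 of 79 members had a higher mean, and the difference was larger for shorter members. In the 6 blastomeres, mean log2(CPM + 1) exceeded that of the other 75 by a median of 1.98 for the 26 members with a coding length up to 400 bases, 1.6 for 28 members of 401 to 600 bases and 1.14 for 20 members of 601 to 900 bases. The 4 members of 901 to 1300 bases had a median of -0.27. Other genes with at least 50 CPM followed the same order with lower values at 0.66 (401 to 600 bases), 0.03 (601 to 900) and -0.80 (901 to 1300). The shortest class of other genes, at 1.51, was in part used to choose the blastomeres. Rpl39 (2.42), Rps27 (2.21), Rpl36 (2.21) and Rps29 (2.19) had the highest differences. Rplp0 stood at 0.03, and Rpl4 and Rpl3, the longest of the usual large subunit proteins, at -0.56 and -0.59. The rank correlation of this difference with coding length was -0.81 over 78 members and -0.37 over 3335 other genes. Whether length itself, RNA quality or the cells' state moved these values was not tested.

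**Figure D3:**
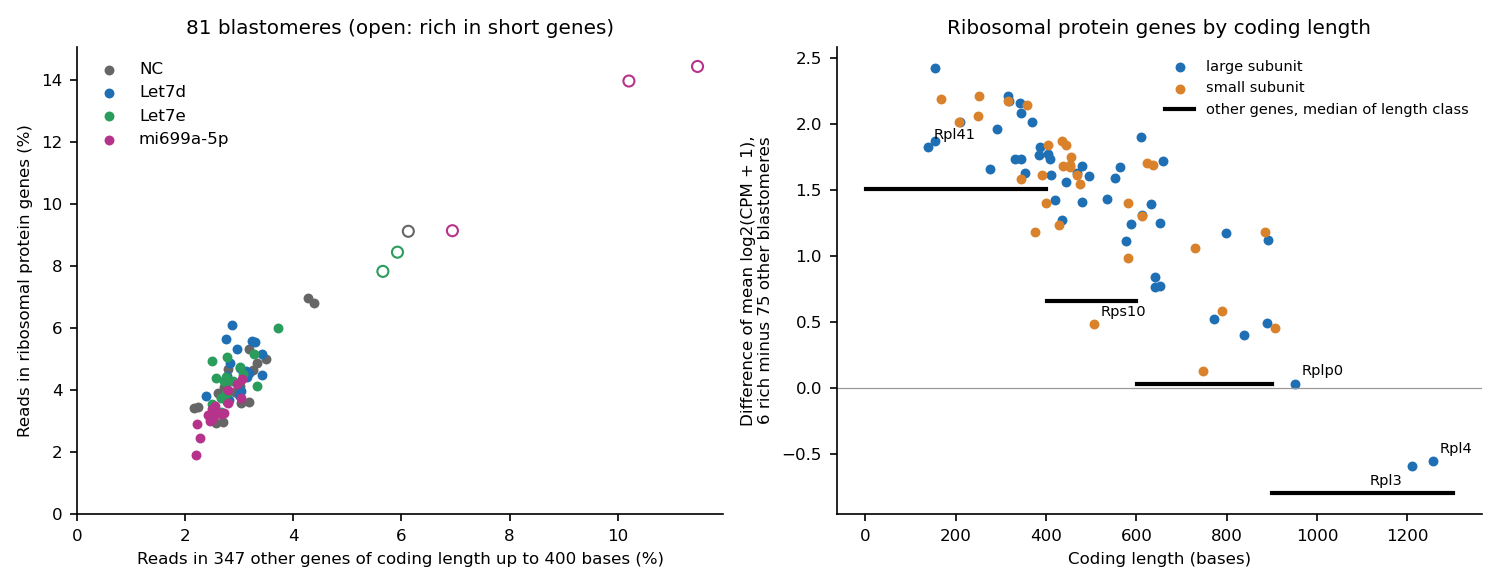
Left, percent of reads in members against percent in 347 other short genes for each blastomere, coloured by group; right, each member's difference in mean log2(CPM + 1) between the 6 rich and the 75 other blastomeres against coding length, with black lines for medians of other genes. Short members lie near 2 and Rpl3 and Rpl4 below 0.

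Members moved together over blastomeres. After the mean of the mouse id was removed, log2(CPM + 1) of 2 members had a mean correlation of 0.70, against 0.03 for pairs among 3335 other genes with at least 50 CPM and 0.30 among the 171 of these with a coding length up to 400 bases. Without the 6 blastomeres the values were 0.53, 0.01 and 0.14. Rps18 and Rpl32 tracked the mean of the other members most closely (r = 0.97 for both), with Rpl11 and Rpl37 close behind (0.96). Rpl4 (r = -0.02), Rpl3 (0.05), Rps10 (0.20) and Rplp0 (0.27) tracked it least. Without the 6 blastomeres Rpl4 stood at 0.67, Rpl3 at 0.72 and Rplp0 at 0.52, while Rps10, the member with fewest reads, stood at -0.02. These correlations are across blastomeres that share depth and chemistry.

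Variation between blastomeres of one mouse id had a median SD of 0.64 on the log2(CPM + 1) scale for members and 0.90 for the other genes. Thinning each blastomere to 1575609 reads left both at 0.64 and 0.90, and leaving out the 6 blastomeres gave 0.37 and 0.80. Rplp0 (0.28), Rpl4 (0.34), Rpl3 (0.36), Rpl7 (0.37), Rps6 (0.39) and Rps2 (0.40) varied least. Rpl36 (0.87), Rps27 (0.86), Rps29 (0.81), Rps28 (0.79), Rps21 (0.79) and Rps27l (0.79) varied most among members with at least 50 CPM. The least variable members have 747 to 1257 coding bases and the most variable 168 to 315. In the class up to 400 coding bases, members and other genes had close medians of 0.71 and 0.73. The medians were 0.64 and 0.75 at 401 to 600 bases, 0.51 and 0.77 at 601 to 900, and 0.35 and 0.86 at 901 to 1300. Other genes over 1300 bases, a class with 0 members, had 1.03. The other genes were not matched to the members by level. The medians of the subunits were alike, at 0.64 for each.

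The genes outside the members that followed their mean most closely over the 81 blastomeres were short as well. Fau, whose product includes the small subunit protein eS30, came first (r = 0.95). The pseudogenes Gm3511, Gm9843 and Rpl37rt followed with 0.90 to 0.92, as did Tma7 and Tomm7. In the same range were Atp5k and Cox8a of oxidative phosphorylation, Nhp2 of the box H/ACA particles and Snrpe of the spliceosome. The coding lengths of the 7 protein genes were 165 to 459 bases. Without the 6 blastomeres Fau stood at 0.82 and the rest at 0.62 to 0.78. The 16 other TOP messengers ran from r = -0.67 to 0.78 with no single order by length. Among the longer ones, Eef2 (2574 coding bases) had -0.67, Eif4b (1833 bases) -0.62 and Eef1a1 (1386 bases) -0.57, but Pabpc1 (1908 bases) had 0.65 and Eef1d (1980 bases) 0.60. The shorter Eef1b2 (675 bases) and Btf3 (612 bases) had 0.74 and 0.71. These lengths are of the longest annotated coding sequence of each gene, and which form was expressed was not tested.

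With the 6 blastomeres left out, members in mi699a-5p were lower than in NC in each mouse id by share. The 4 mi699a-5p mouse ids held 3.13%, 3.35%, 3.53% and 3.39% of their reads in members, below each of the 10 others, which ran from 3.59% (Let7e mouse id 1) to 5.34% (Let7d mouse id 3). NC stood at 4.72%, 3.85% and 4.33%. With all 81 blastomeres and the median blastomere of each mouse id in place of the sum, the groups held 3.34% ± 0.05 in mi699a-5p, 4.01% ± 0.41 in NC, 4.73% ± 0.72 in Let7d and 4.2% ± 0.34 in Let7e. The median log2 fold change of members for mi699a-5p against NC was -0.48 without the 6, where that of all genes was 0.03, and 0 of 79 members lay above 0.

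No member passed adjustment there either (smallest adjusted p = 0.328, edgeR's quasi-likelihood test). An unadjusted p under 0.05 was given by 52 of 79, all lower, where 3.98% of all genes were lower at that p. Members moved together over these blastomeres (mean correlation of 0.53), so the 52 are not separate findings. Rps27l (-0.78 ± 0.18) and Rplp1 (-0.80 ± 0.19), a small acidic protein of the stalk, had the smallest p. Rpl37a (-0.61 ± 0.16), Rps20 (-0.79 ± 0.22) and Rpl32 (-0.54 ± 0.15) came next. Nearest to 0 were the X-linked Rps4x (-0.01 ± 0.27), Rpl39 (-0.08) and Rpl10 (-0.08 ± 0.24), then Rps3 (-0.17), Rpl4 (-0.19 ± 0.20) and Rpl3 (-0.20 ± 0.18). Both subunits shared the difference, with medians of -0.44 for the large and -0.50 for the small. Short genes outside the members moved the same way by less: the share in the 347 short genes was 2.61% ± 0.13 in mi699a-5p and 3.0% ± 0.15 in NC. By coding length, members had medians of -0.52, -0.49, -0.39 and -0.27 in the 4 classes up to 1300 bases, and other genes -0.23, -0.14, -0.09 and -0.03. The part of length and of the choice of blastomeres in this difference was not tested. The rule left out 3 of 21 mi699a-5p and 1 of 22 NC blastomeres, by a share that was correlated with the share in members (r = 0.95). For Let7d and Let7e against NC the medians without the 6 were 0.00 and 0.01.

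**Figure D4:**
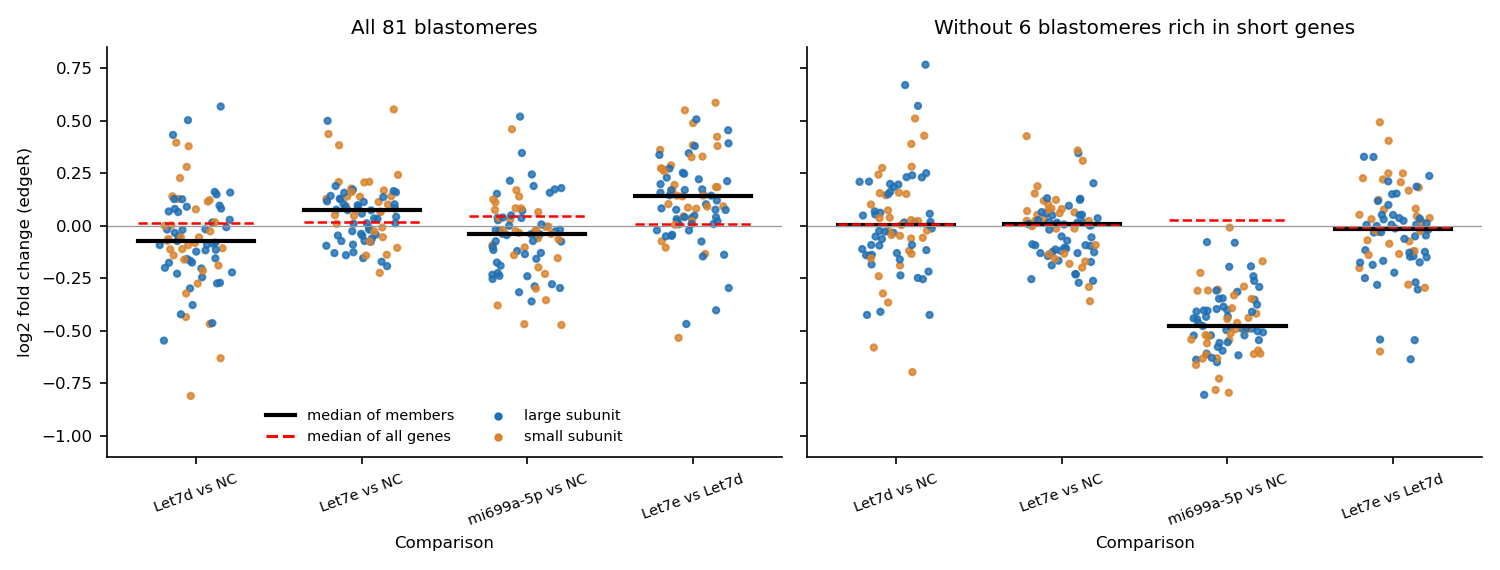
Log2 fold change of each of the 79 members in 4 comparisons, with all 81 blastomeres (left) and without 6 (right); black lines are medians of members and red dashed lines medians of all genes. For mi699a-5p against NC the median goes from -0.04 to -0.48, and no member passed adjustment in either.

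X-linked members differed with the sex-linked transcripts. Rps4x of the small subunit and Rpl10, Rpl36a and Rpl39 of the large subunit lie on the X chromosome, and 0 members lie on Y. Xist, the RNA that coats an inactive X chromosome, was at 100 CPM or more with Y-linked reads (3 genes summed) under 20 CPM in 29 blastomeres, the reverse held in 50, and 2 fitted neither. The median of Rps4x was 1534 CPM with Xist and 854 with Y-linked reads, a ratio of 1.8. The ratios were 1.94 for Rpl10 (1383 and 713 CPM), 1.89 for Rpl36a (492 and 259) and 2.17 for Rpl39 (366 and 168). Autosomal Rplp0 (2605 and 2482 CPM) and Rpl3 (1116 and 1153) had ratios of 1.05 and 0.97. Other autosomal members read in this way had 1.26 (Rpl39l), 1.16 (Rpl10l), 1.04 (Rpl26), 0.95 (Rps4l) and 0.84 (Rpl4). Most of the 6 blastomeres rich in short genes are in the Xist class. In those 6 the short Rpl36a and Rpl39 were higher by 2.17 and 2.42 on the log2 scale. Their part in these ratios was not tested. The ranges of both kinds of blastomere overlapped for each gene: Rps4x ran from 955 to 2620 with Xist and from 491 to 1470 with Y-linked reads.

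**Figure D5:**
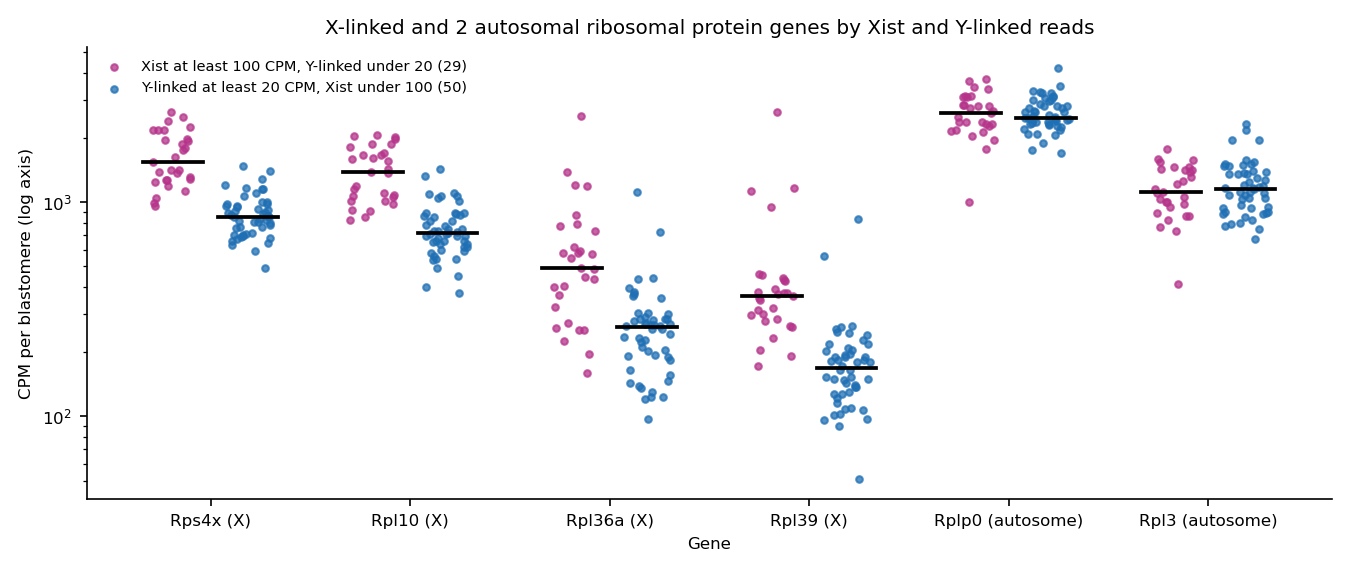
CPM per blastomere (log axis) for 4 X-linked and 2 autosomal members, in 29 blastomeres with Xist and 50 with Y-linked reads; black lines are medians. The medians of the X-linked members differ by ratios of 1.8 to 2.17, and those of Rplp0 and Rpl3 by 1.05 and 0.97.

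Mouse ids differed in sex-linked reads. All classed blastomeres had Xist in Let7d mouse ids 2 and 3 and mi699a-5p mouse id 1, both kinds occurred in NC 2, Let7e 1 and mi699a-5p 4, and the rest had Y-linked reads. For Rps4x, NC mouse ids had 929, 1256 and 1047 CPM, Let7d 862, 1273 and 2114, Let7e 1174, 866, 993 and 882, and mi699a-5p 1599, 865, 743 and 1300. The 6 highest values are those of the 6 mouse ids that hold Xist blastomeres. Within NC mouse id 2, Rps4x ran from 1382 to 1973 CPM in the 4 Xist blastomeres and from 767 to 979 in the 4 others, with no overlap. Rpl10 there ran from 920 to 2008 and from 376 to 596, and Rpl39 from 190 to 1161 and from 130 to 149. Rpl36a overlapped, with 159 to 1381 and 135 to 183. The blastomere of NC mouse id 2 that is rich in short genes is among these 4 with Xist. Its part in the upper ends of these ranges was not tested. In mi699a-5p mouse id 4 the 3 Xist blastomeres had 1362 to 1631 CPM of Rps4x and the other had 690. In Let7e mouse id 1, which holds 2 of the 6 blastomeres rich in short genes, the ranges of 990 to 1745 and 752 to 1145 overlapped.

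In a fit with the log2 level of Y-linked reads as a covariate beside the treatments, the 4 X-linked members were lower with more Y-linked reads, by 0.16 ± 0.03 (Rps4x), 0.14 ± 0.03 (Rpl10), 0.22 ± 0.04 (Rpl36a) and 0.24 ± 0.05 (Rpl39) log2 units per log2 unit. The slopes are -0.155, -0.143, -0.215 and -0.237. Unadjusted p was 7.22e-05, 0.000123, 8.37e-05 and 0.000126. Adjusted over all genes p was 0.0813, 0.0904, 0.0825 and 0.0904 (edgeR's quasi-likelihood test), so none passed 0.05. Over all genes 0.0761% were called for this slope, and 3.3% were lower at an unadjusted p under 0.05, against 4 of 4 X-linked members and 7 of 75 others. Of 228 other X-linked genes 94 were lower at that p. A slope below 0 was given by 67 of the 75 members on other chromosomes, and by 4131 of all 7886 genes. Autosomal Rpl39l had a slope of -0.194 (p = 0.00128, adjusted p = 0.29, edgeR's quasi-likelihood test). The test of this slope was chosen after the data were seen. With the covariate, Rpl10 for Let7d against NC went from 0.50 to -0.17, and Rps4x for Let7e against Let7d from -0.53 to 0.17, so both changed sign.

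Genes around the members were read from fixed lists. Among the 7 ribosomal and related genes outside the rule, 0 passed in each of the 4 comparisons and 0 had an unadjusted p under 0.05. Of 16 other TOP messengers 0 passed. Tpt1, a translationally controlled protein, was read at 271, 265 and 274 CPM in NC and 145, 155 and 151 in Let7d, without overlap (log2 fold change -0.84 ± 0.25, p = 0.00338, adjusted p = 0.886, edgeR). Against Let7d, Let7e was higher for Tpt1 (0.81 ± 0.24), Eef1d (0.48 ± 0.20) and Npm1 (0.38 ± 0.18), with adjusted p of 0.868, 0.924 and 0.924. Eif4b, an initiation factor, was at 269, 233 and 243 CPM in NC and 310, 451, 437 and 478 in Let7e (log2 fold change 0.76 ± 0.21, adjusted p = 0.999).

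Of 18 regulators of ribosomal protein messengers 16 had a row and 0 passed. Rptor, the mTOR partner (1.2 ± 0.56), and the S6 kinase Rps6kb2 (-0.88 ± 0.39) had an unadjusted p under 0.05 for mi699a-5p. Of 12 chaperones and assembly factors 11 had a row, with 0 at that p in any comparison. Ribosomal proteins that are not built into ribosomes bind Mdm2 and raise p53. Among 6 genes of that response 0 passed, and 3 p53 targets were lower for Let7d against NC at an unadjusted p under 0.05, where 4.69% of all genes differed in either direction. Cdkn1a was at 407, 360 and 193 CPM in NC and 225, 175 and 86.2 in Let7d, with an overlap (log2 fold change -0.98 ± 0.36, adjusted p = 0.986). Ccng1 was at 148, 87.1 and 193 CPM against 75.3, 4.04 and 52.4 (-1.70 ± 0.68), and Phlda3 at 45.2, 58.6 and 46.7 against 13.8, 6.01 and 9.08 (-2.38 ± 0.86). Both of these had no overlap between these groups. Phlda3 was also below every NC value in Let7e (12.6, 28.3, 12.4 and 28.3 CPM) and mi699a-5p (0.47, 37.8, 26.1 and 13.4), so NC stood apart from the other 3 groups. The ribosomal partners of Mdm2, Rpl5 and Rpl11, stood at 614 ± 41.4 and 562 ± 59.3 CPM in NC and at 606 ± 98.7 and 528 ± 61.9 in Let7d.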

How the data were processed

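Single-blastomere Smart-seq2 libraries were analysed from the deposited raw counts, which the authors made with STAR on GRCm38.p6, per the submitters' processing notes, with no version and no counting program given. The deposited table is named as counts after a CPM filter, so genes below that filter are absent. Shares of reads are shares of the reads in this table. It holds 7886 genes, 7878 of them with a symbol in GENCODE M21, the same build, and 0 columns were left unmapped. The deposited RPKM values were not used. Columns were compared by chi-square per gene (summed counts of 20 or more), and 1 pair at 1.05 was joined. Counts summed per mouse id went into edgeR 4.0.16 under R 4.3.3 (scaling by TMM; filterByExpr, which removed 0 genes; quasi-likelihood F test, two-sided, 1 fit of all groups, 10 residual degrees of freedom, Benjamini-Hochberg at 0.05 over all genes), with DESeq2 1.42.0 as an alternative. The test was checked on simulated counts. Errors of fold changes are the fold change divided by the root of F.

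Named genes are, per comparison, the 6 members with the smallest p, the 6 at each end of level and of variation, listed paralogs and well-known members, the 10 closest other genes, and list genes at an unadjusted p under 0.05. Some members that this rule names are not reported here. The members, lists and tests were chosen with earlier results of these data known. Tried alternatives were other size factors, filters, covariates and scalings, and leaving out each mouse id. Coding length is that of a gene's longest annotated coding sequence, which need not be the form expressed. Length comparisons used genes with at least 50 CPM, and per-blastomere values a pseudocount of 1. Reads without molecular identifiers are not independent molecules.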

Additional observations from a re-analysis of the deposited data

Results flagged for a closer look

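In each group of 4 to 10 values, the highest or lowest was compared with its nearest neighbour relative to the group's range (Dixon's criterion at 95%). This singled out 9 of 103 groups, and chance gives about 1 in 20 for a single group. Many of the groups hold the same mouse ids for members that move together, so the 9 are not separate findings. Among blastomeres of one mouse id, the share of reads in members stood apart at 9.12% in NC mouse id 2 (next 4.89%), 6.95% in NC mouse id 3 (next 4.1%), 14% in mi699a-5p mouse id 2 (next 4.36%) and 4.18% in mi699a-5p mouse id 3 (next 3.33%). Among the 4 mouse ids of Let7e, the first stood apart for Rpl12 (315 CPM, next 212), Rpl22 (390, next 288), Rpl26 (528, next 449) and Rps27a (638, next 504), and it holds 2 of the 6 blastomeres rich in short genes. Among those of mi699a-5p, the first stood apart for Rpl39 (721 CPM, next 233), and it holds 2 of those blastomeres and all its classed blastomeres have Xist.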

How the results depend on the processing

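In each of the 5 comparisons, 0 members were called under every alternative fit run, DESeq2 and leaving out each mouse id included; dropping the filter or making it stricter left the genes tested as they were. The replicate block (the mouse number as a term) gave medians of -0.07, 0.17, 0.01 and 0.22 for Let7d, Let7e and mi699a-5p against NC and Let7e against Let7d, and called 0 members. Same-numbered mouse ids had correlations of -0.126 to 0.128 in 19 pairs, so the numbers were not treated as pairs. Leaving out each mouse id moved the 4 medians over -0.14 to 0.03, -0.04 to 0.12, -0.26 to 0.08 and 0.02 to 0.19, and called 0 members each time. It moved the shares over 4.40% to 4.59% (NC), 4.37% to 4.93% (Let7d), 4.49% to 4.78% (Let7e) and 3.9% to 4.6% (mi699a-5p), and the log2 ratios of subunits over 0.56 to 0.59, 0.53 to 0.59, 0.47 to 0.49 and 0.51 to 0.57. Adjusted for the level of Y-linked reads, Rpl10 became -0.165 for Let7d against NC and 0.188 for Let7e against Let7d, and Rps4x 0.174 for the latter. Leaving out the 6 blastomeres rich in short genes, chosen after seeing the data, moved the mi699a-5p median to -0.477, Rps27 for mi699a-5p against NC to -0.309, the shares of NC to 4.3% and Let7e to 4.26%, the Let7e log2 ratio to 0.513 and the spread between blastomeres to 0.368. The median blastomere, also added later, gave 4.01% for NC and 4.2% for Let7e. Without ribosomal RNA and mitochondrial rows in the total the shares were 5.44% (NC), 5.12% (Let7d), 5.36% (Let7e) and 5.01% (mi699a-5p), so that NC was highest, where Let7d was highest in the full total. The slopes of the X-linked members kept their direction without each mouse id; Rps4x passed 0.05 without Let7d mouse id 2 (adjusted p = 0.0498) and Rpl39 without Let7d mouse id 1 (0.0465). The cause of these shifts was not tested.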
